A study of Homo sapiens with 24 samples.

Results

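The 2 h response to the RAS inhibitor RMC-7977 was compared between 2 human acute myeloid leukaemia cell lines, gene by gene. The compound binds the GTP-loaded, active form of RAS proteins. The groups were OCI-AML3 given 25 nM RMC-7977 for 2 h, OCI-AML3 given the solvent DMSO, Molm-14 given 25 nM RMC-7977 for 2 h and Molm-14 given DMSO, with 4 libraries in each group. These are 16 of the 24 samples of the series, of which 23 had values here. The labels give OCI-AML3 the genotype NRAS Q61L, an activating change in a RAS gene itself, and Molm-14 the genotype FLT3-ITD, an internal duplication that activates the receptor tyrosine kinase FLT3 upstream of RAS. Each genotype is thus represented by 1 line, and the line and the genotype cannot be told apart. Per the labels, the same number of cells was treated per condition, all samples were in batch 1, and no time is given for DMSO. Whether replicate libraries stem from independent cultures is not stated, and the p-values therefore reflect library-to-library spread alone, which may be technical.

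The response of a line was its mean log2 CPM (read counts scaled to a common library size) at 2 h minus its mean in DMSO. The difference was the OCI-AML3 response minus the Molm-14 response, so a positive value means a higher response in OCI-AML3. It was computed for all 13033 genes of the table, and no gene was chosen by its values for the comparison itself. A gene was called at an adjusted p below 0.05 (limma, Benjamini-Hochberg over all 13033 genes) with an absolute log2 value of at least 1, and rose or fell is used for called responses only. CPM values are 2 to the power of the deposited value, on which a gene with no read stands at 0.105 CPM. The alternative with a pseudocount of 1 CPM added that amount to each value before taking the log, which shrinks differences that rest on low levels.

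RAS proteins switch on the RAF, MEK and ERK kinases. ERK drives a fast transcription programme that has its own brakes, the dual-specificity phosphatases (DUSP) and the Sprouty (SPRY) proteins, and it feeds the immediate early genes, whose transcripts are made and lost within minutes to hours. Other immediate early genes answer to stress kinases or to the ERK5 pathway. In myeloid leukaemia, RAS signalling is switched on by mutations of RAS genes and by activated receptors such as FLT3.

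Genes called in both lines mostly moved the same way. Of 341 genes called at 2 h in both lines, 334 moved in the same direction, 127 rising and 207 falling in both, and 7 moved in opposite directions. Across the 11767 genes that reached 1 CPM in both lines the responses had a Pearson r of 0.63 and a Spearman rho of 0.63, given as a description across genes, which are not independent. In OCI-AML3, 421 genes rose (3.23% of those tested) and 437 fell (3.35%). In Molm-14, 561 rose (4.3%) and 389 fell (2.98%). In bulk RNA, fewer cells with a transcript and less of it per cell cannot be told apart.

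The difference was called for 735 genes, of which 276 were higher in OCI-AML3 (2.12% of genes tested) and 459 were lower (3.52%). Without the size limit, 5039 genes passed at an adjusted p below 0.05. The largest group of called differences, 230 genes, rose in Molm-14 with no call in OCI-AML3. In 57 genes the Molm-14 response alone was called, as a fall. In OCI-AML3 alone, 126 genes rose and 83 fell. For 41 genes both lines moved in the same direction by different amounts, and for 191 neither response was called by itself. In 719 of the 735 genes, all 4 library responses of one line lay above all 4 of the other, against 6373 of the 13033 genes tested. The responses come from the same values as the calls and share the DMSO mean of their line. The count therefore describes the calls and is no further support for them. Among the called genes 502 reached 1 CPM in both lines, 134 were below it in Molm-14, 81 in OCI-AML3 and 18 in both.

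**Figure D1:**
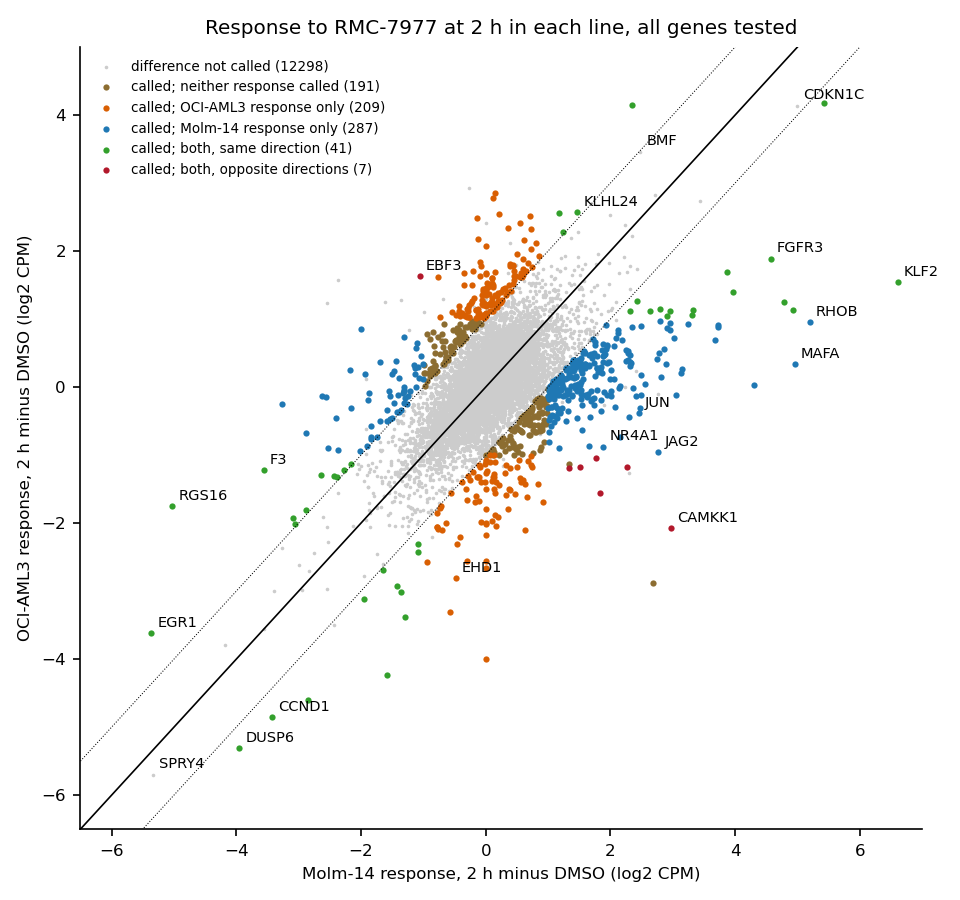
Response at 2 h in Molm-14 (horizontal) and in OCI-AML3 (vertical), in log2 CPM, for 13033 genes. The solid line marks equal responses and the dotted lines a difference of 1. Coloured points are the 735 genes called for the difference, by which responses were called. Blue points, called in Molm-14 alone, are the most frequent, and the 7 red points moved in opposite directions.

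KLF2 (chr19:16324817-16327874, plus strand; gene positions are those of GENCODE 29 on GRCh38), a zinc finger factor that is a known target of the ERK5 pathway and of MEF2 factors, had the largest called difference after that of the pseudogene PSMC1P1, whose call was unstable. It stood at 160.0, 163, 164 and 194 CPM in OCI-AML3 at 2 h, against 57.8, 58.3, 65.2 and 52.4 CPM in OCI-AML3 DMSO. In Molm-14 it had 472, 374, 405 and 379 CPM at 2 h, against 4.77, 4.34, 3.36 and 4.32 CPM in DMSO. KLF2 rose in both lines, and the Molm-14 libraries lay below those of OCI-AML3 in DMSO and above them at 2 h, with no overlap. The response was 1.54 in OCI-AML3 and 6.61 in Molm-14, a difference of -5.06 ± 0.13 (SE, n = 4 per group, adjusted p = 1.15e-19).

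JUN (chr1:58780788-58784327, minus strand), the AP-1 subunit, followed the lines apart. It had 11.6, 13.5, 14.6 and 13.2 CPM in OCI-AML3 at 2 h, against 19.4, 16.8, 17.2 and 15.7 CPM in OCI-AML3 DMSO. The Molm-14 libraries held 29.3, 25.0, 28.6 and 25.0 CPM at 2 h, against 4.84, 6.09, 4.83 and 4.07 CPM in DMSO. In Molm-14 all treated libraries lay far above DMSO and JUN rose, and in OCI-AML3 all treated libraries lay below DMSO, a response that was not called (-0.38). The difference was -2.84 ± 0.16 (SE, adjusted p = 3.58e-15).

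NR4A1 (chr12:52022832-52059507, plus strand), an orphan nuclear receptor of the immediate early class, had 10.0, 10.1, 9.19 and 10.6 CPM in OCI-AML3 at 2 h, against 20.8, 18.0, 18.8 and 15.9 CPM in OCI-AML3 DMSO. Its Molm-14 levels were 54.9, 49.6, 49.8 and 48.4 CPM at 2 h, against 14.2, 15.3, 12.9 and 12.7 CPM in DMSO. Treated libraries lay below DMSO in OCI-AML3 and above it in Molm-14, without overlap in either line. Only the Molm-14 response was called (1.88, with -0.88 in OCI-AML3), and the difference was -2.76 ± 0.13 (SE, adjusted p = 7.47e-17). KLF6, another zinc finger factor, averaged 57.9 CPM in OCI-AML3 at 2 h and 45.1 CPM in OCI-AML3 DMSO, and 212 CPM in Molm-14 at 2 h and 42.2 CPM in Molm-14 DMSO, a difference of -1.97 ± 0.08 (adjusted p = 4.38e-18).

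EGR1 (chr5:138465490-138469315, plus strand), a zinc finger factor induced through ERK and the serum response factor, differed in the other direction. It had 3.11, 3.32, 3.08 and 3.95 CPM in OCI-AML3 at 2 h, against 42.2, 41.0, 40.8 and 40.8 CPM in OCI-AML3 DMSO. Levels in Molm-14 were 1.47, 1.20, 0.969 and 1.66 CPM at 2 h, against 50.8, 54.7, 55.3 and 53.9 CPM in DMSO. EGR1 fell in both lines, and every treated Molm-14 library lay below every treated OCI-AML3 library. The response was -3.62 in OCI-AML3 and -5.37 in Molm-14, a difference of 1.75 ± 0.28 (SE, adjusted p = 1.04e-05).

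FOS (chr14:75278774-75282230, plus strand), the partner of JUN in AP-1, fell in Molm-14 alone. It had 34.2, 29.5, 31.2 and 35.5 CPM in OCI-AML3 at 2 h, against 31.8, 36.5, 36.4 and 33.2 CPM in OCI-AML3 DMSO. Molm-14 libraries stood at 13.3, 18.7, 24.7 and 17.7 CPM at 2 h, against 56.4, 45.3, 38.3 and 44.4 CPM in DMSO. The OCI-AML3 groups overlapped and the Molm-14 groups did not. The difference was 1.25 ± 0.19 (SE, adjusted p = 1.2e-05), with responses of -0.08 in OCI-AML3 and -1.33 in Molm-14.

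Of the 23 measured immediate early genes, 3 were called higher (13.0%, against 2.12% of all genes), 8 lower (34.8%, against 3.52%) and 12 were not called. The median difference of the list was -0.37, against 0.02 over all genes tested. This list and those below were chosen with earlier results of these data known. Their shares and medians are therefore descriptions of the lists and no independent support. Besides KLF2, JUN, NR4A1, KLF6, EGR1 and FOS, the called genes were ZFP36L1, DUSP2, BTG2 and DUSP1 (lower) and NR4A2 (higher); the last 4 are named after their values were seen. ZFP36L1, which promotes decay of short-lived mRNAs, averaged 2.02 CPM in OCI-AML3 at 2 h and 5.92 CPM in OCI-AML3 DMSO, and 6.64 CPM in Molm-14 at 2 h and 4.22 CPM in Molm-14 DMSO (difference -2.29 ± 0.22, adjusted p = 1.17e-09). IER2, ZFP36 and EGR4 had differences of 0.02 to 0.03.

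The promoters of KLF2, JUN and EGR1 are shown because these genes had opposite calls within the immediate early class. Each is the RefSeq sequence on GRCh38.p14 from 250 bases before to 50 bases after RefSeq's start of the gene, 5′ to 3′ on the gene's strand, with matches in capitals to the MEF2 site or to the CArG box bound by serum response factor. KLF2 is at chr19:16324576-16324875 (plus strand), JUN at chr1:58783998-58784297 (minus strand) and EGR1 at chr5:138465229-138465528 (plus strand). The RefSeq starts lie at base 16324826 for KLF2, 58784047 for JUN and 138465479 for EGR1, which is 9, 280 and 11 bases from the outermost GENCODE 29 starts, so the JUN stretch lies inside the GENCODE gene.
KLF2: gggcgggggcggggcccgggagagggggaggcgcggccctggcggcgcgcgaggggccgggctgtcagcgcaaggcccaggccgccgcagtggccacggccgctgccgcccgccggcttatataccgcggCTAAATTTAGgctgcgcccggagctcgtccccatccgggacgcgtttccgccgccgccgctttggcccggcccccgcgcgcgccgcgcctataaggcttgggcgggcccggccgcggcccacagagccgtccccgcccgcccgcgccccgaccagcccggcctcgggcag
JUN: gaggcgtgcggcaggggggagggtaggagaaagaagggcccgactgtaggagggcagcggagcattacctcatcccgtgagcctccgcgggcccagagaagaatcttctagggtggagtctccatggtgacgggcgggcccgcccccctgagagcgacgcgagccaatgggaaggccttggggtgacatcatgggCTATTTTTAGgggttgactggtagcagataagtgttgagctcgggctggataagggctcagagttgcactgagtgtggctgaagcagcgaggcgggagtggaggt
EGR1: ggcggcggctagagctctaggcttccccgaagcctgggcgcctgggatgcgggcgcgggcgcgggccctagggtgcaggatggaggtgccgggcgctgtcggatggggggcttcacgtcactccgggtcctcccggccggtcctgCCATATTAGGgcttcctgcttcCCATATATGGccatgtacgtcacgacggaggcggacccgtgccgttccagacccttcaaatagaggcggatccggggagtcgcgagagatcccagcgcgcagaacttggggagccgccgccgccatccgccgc

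KLF2 and JUN each held 1 MEF2 match, starting 120 and 55 bases before the RefSeq start. EGR1 held 2 CArG boxes, starting 105 and 83 bases before it. The other immediate early genes described above did not share these matches. Within the same stretch around their RefSeq starts, NR4A1, KLF6 and ZFP36L1, called lower, held no MEF2 match. FOS, called higher, held no CArG box within that stretch. Sites farther from the start were not searched, so their absence from these genes is not shown. A match is a description of the letters and not evidence of binding. Of the 13033 genes tested 10440 had a promoter in the table, and 11 motifs were searched on both strands. The MEF2 site was found in 5 of 352 promoters of genes called lower (1.42%), 1 of 205 called higher (0.488%) and 35 of all 10440 (0.335%). The CArG box was in 4 (1.14%), 2 (0.976%) and 107 (1.02%). The interferon-stimulated response element, searched as GAAANNGAAA, was in 8 promoters called lower (2.27%), 15 called higher (7.32%) and 311 of all (2.98%). The ETS motif CCGGAAG was rarer in both called classes, with 20 called lower (5.68%), 12 called higher (5.85%) and 2082 of all (19.9%). The FOXO motif TGTTTAC was in 4 called lower (1.14%), 11 called higher (5.37%) and 245 of all (2.35%). The NF-kB site was in 74 called lower (21.0%), 29 called higher (14.1%) and 1527 of all (14.6%). Median promoter GC content was 71.8% in genes called lower, 61.0% in genes called higher and 65.3% in all. Its part in these motif shares was not tested.

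**Figure D2:**
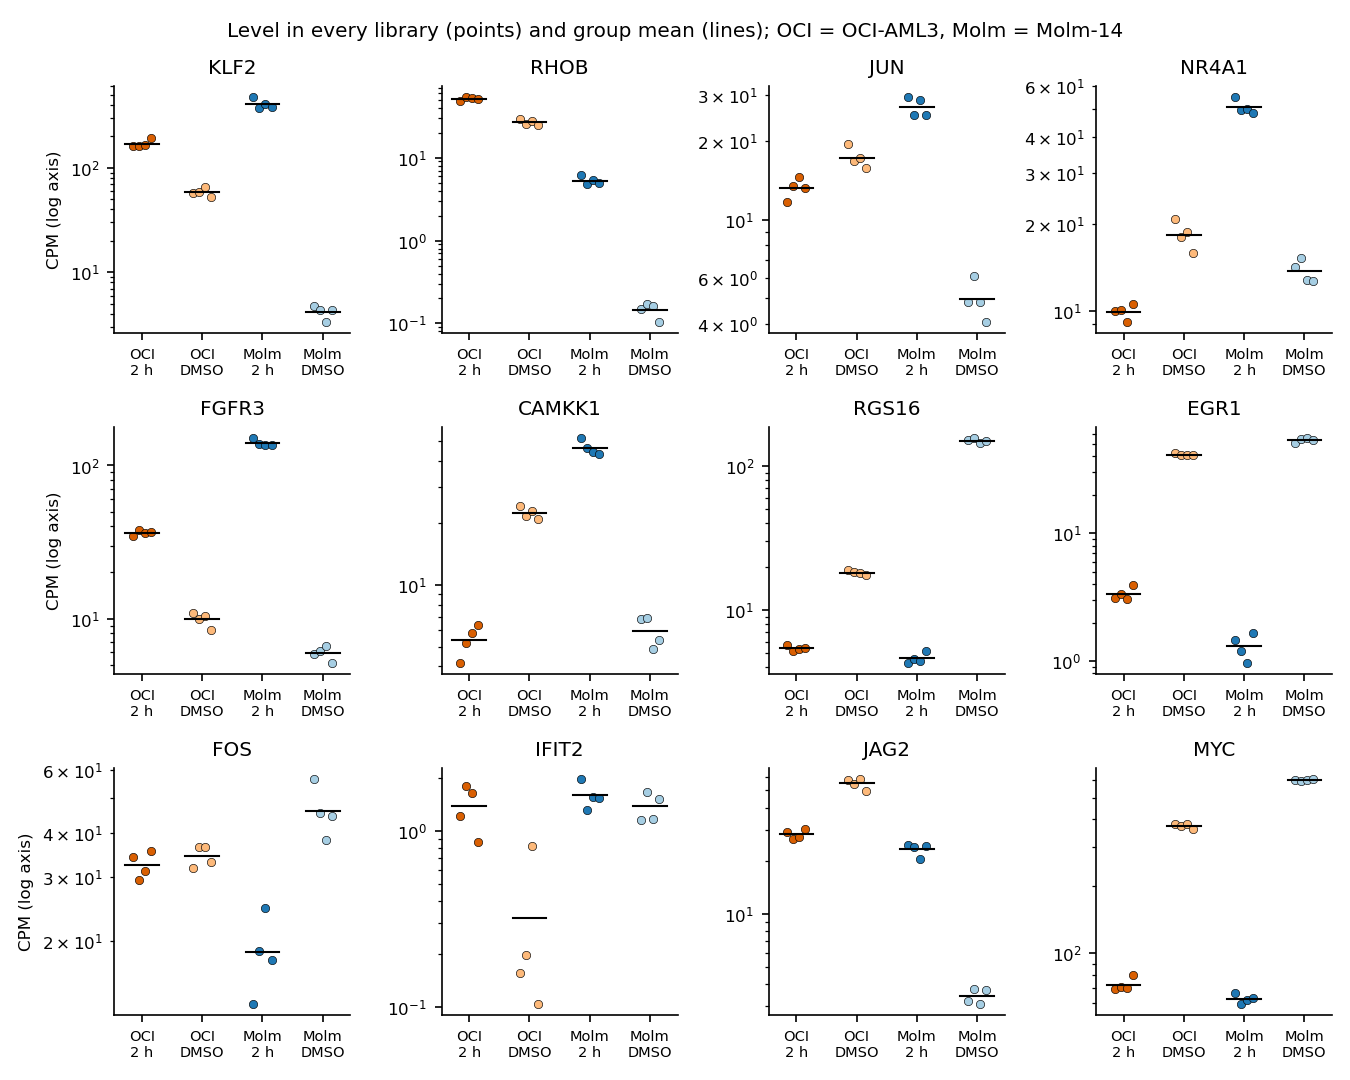
CPM on a log axis in each of the 16 libraries (points) with the group mean (line) for 12 genes. In KLF2, RHOB, JUN, NR4A1 and FGFR3 the Molm-14 libraries at 2 h stand far above Molm-14 DMSO while OCI-AML3 moves less or the other way. RGS16 and EGR1 fell in both lines, further in Molm-14, and MYC had a difference of 0.89 that was not called.

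Of the 7 genes called in both lines in opposite directions, EBF3 rose in OCI-AML3 and fell in Molm-14 and the other 6 did the reverse. CAMKK1 (chr17:3860315-3894891, minus strand), a kinase upstream of calcium/calmodulin-dependent kinases, had 4.17, 5.18, 5.80 and 6.36 CPM in OCI-AML3 at 2 h, against 24.1, 21.7, 22.8 and 21.0 CPM in OCI-AML3 DMSO. In Molm-14 it had 51.7, 46.4, 44.2 and 43.3 CPM at 2 h, against 6.82, 6.85, 4.89 and 5.37 CPM in DMSO. The gene fell in OCI-AML3 (-2.07) and rose in Molm-14 (2.97), and no groups within a line overlapped. Its difference was -5.04 ± 0.16 (SE, adjusted p = 1.07e-19).

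HEG1, a membrane protein of cell junctions, had 6.41, 6.15, 6.83 and 5.75 CPM in OCI-AML3 at 2 h, against 13.5, 13.1, 14.8 and 15.5 CPM in OCI-AML3 DMSO. The Molm-14 libraries held 17.5, 17.0, 16.9 and 16.2 CPM at 2 h, against 3.83, 3.75, 3.14 and 3.39 CPM in DMSO. It fell in OCI-AML3 and rose in Molm-14 without overlap (difference -3.44 ± 0.16, adjusted p = 4.38e-17). FGFRL1, a receptor-like protein that binds fibroblast growth factors, averaged 18.1 CPM in OCI-AML3 at 2 h and 40.8 CPM in OCI-AML3 DMSO, and 44.5 CPM in Molm-14 at 2 h and 15.6 CPM in Molm-14 DMSO (difference -2.69 ± 0.13, adjusted p = 8.71e-17).

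PLEKHF1, an endosome protein, and ARHGEF16, an exchange factor for small GTPases, did likewise at low levels. Their differences were -3.40 ± 0.31 (adjusted p = 3.22e-10) and -2.81 ± 0.51 (adjusted p = 7.09e-05), and -1.98 and -1.51 with a pseudocount of 1 CPM. EBF3, a DNA-binding factor of the early B cell factor family, averaged 1.44 CPM in OCI-AML3 at 2 h and 0.473 CPM in OCI-AML3 DMSO, and 11.2 CPM in Molm-14 at 2 h and 23.5 CPM in Molm-14 DMSO. Its difference was 2.69 ± 0.21 (adjusted p = 6.14e-12), or 1.73 with the pseudocount.

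Among the other large negative differences were genes that were nearly silent in untreated Molm-14. RHOB (chr2:20447074-20449445, plus strand), a small GTPase with a very short-lived transcript, had 48.9, 53.6, 52.7 and 51.6 CPM in OCI-AML3 at 2 h, against 29.1, 25.5, 27.5 and 24.8 CPM in OCI-AML3 DMSO. Its Molm-14 levels were 6.14, 4.76, 5.32 and 4.99 CPM at 2 h, against 0.151, 0.170, 0.161 and 0.105 CPM in DMSO. Treated libraries lay above DMSO in both lines, and the Molm-14 libraries at 2 h were still below untreated OCI-AML3. Over the 4 Molm-14 libraries of each group RHOB had 399 reads at 2 h and 3 in DMSO, a ratio of 124 (exact 95% interval 42.2 to 605, counting error only), while its OCI-AML3 response was 0.95. The fitted difference was -4.24 ± 0.31 (adjusted p = 3.95e-12), or -1.53 with a pseudocount of 1 CPM.

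JAG2 (chr14:105140981-105168824, minus strand), a ligand of Notch receptors, averaged 28.2 CPM in OCI-AML3 at 2 h and 55.0 CPM in OCI-AML3 DMSO, and 23.3 CPM in Molm-14 at 2 h and 3.43 CPM in Molm-14 DMSO (difference -3.73 ± 0.11, adjusted p = 2.84e-21). CRIP2, a LIM domain protein, rose in both lines and averaged 5.04 CPM in OCI-AML3 at 2 h and 2.30 CPM in OCI-AML3 DMSO, and 15.9 CPM in Molm-14 at 2 h and 0.532 CPM in Molm-14 DMSO (difference -3.79 ± 0.27, adjusted p = 9.8e-13). KIAA1522, MEGF6 and the beta tubulin genes TUBB2A and TUBB4A completed, with PSMC1P1, the 12 largest of this direction among genes that reached 1 CPM in both lines and 5 CPM in some group, at -3.53, -2.98, -3.17 and -2.93. With a pseudocount of 1 CPM KIAA1522 stood at -2.26, TUBB2A at -1.19 and TUBB4A at -1.30. TUBB2A has a near-identical paralog, so its reads are uncertain.

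The processed pseudogene PSMC1P1 had the most negative value of all (-5.58 ± 2.12, adjusted p = 0.0463). It had reads in 1 of the 4 OCI-AML3 libraries at 2 h (2.66 CPM, the others at 0.105 CPM), its parent gene is nearly identical, and its call ended in 16 of the 26 alternatives.

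On the higher side, RGS16 (chr1:182598623-182604408, minus strand) led. It encodes a regulator that turns off G-protein signals, and it had 5.73, 5.23, 5.34 and 5.42 CPM in OCI-AML3 at 2 h, against 18.9, 18.5, 18.1 and 17.4 CPM in OCI-AML3 DMSO. Levels in Molm-14 were 4.30, 4.60, 4.43 and 5.16 CPM at 2 h, against 152, 156, 144 and 150 CPM in DMSO. At 2 h the lines stood at similar levels, and in DMSO the Molm-14 libraries stood about an order of magnitude higher. RGS16 fell in both lines, by -1.75 in OCI-AML3 and -5.03 in Molm-14 (difference 3.28 ± 0.10, adjusted p = 3.21e-21).

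F3 (chr1:94529225-94541800, minus strand), tissue factor, also fell in both lines. It had 4.51, 4.63, 3.75 and 3.84 CPM in OCI-AML3 at 2 h, against 9.60, 9.64, 10.5 and 9.26 CPM in OCI-AML3 DMSO. Molm-14 libraries stood at 9.27, 10.2, 11.4 and 9.99 CPM at 2 h, against 126, 113, 118 and 126 CPM in DMSO. Treated and DMSO libraries did not overlap in either line, and every Molm-14 library was higher than every OCI-AML3 library both at 2 h and in DMSO (difference 2.34 ± 0.11, adjusted p = 1.39e-16).

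OSR2, a zinc finger factor, rose in OCI-AML3 and had a response of -0.77 in Molm-14 that was not called. It had 56.3, 57.4, 57.0 and 64.2 CPM in OCI-AML3 at 2 h, against 18.7, 18.2, 21.8 and 17.8 CPM in OCI-AML3 DMSO. In Molm-14 it had 4.35, 3.83, 4.27 and 4.01 CPM at 2 h, against 8.11, 6.81, 6.63 and 6.62 CPM in DMSO. The libraries lay on opposite sides of DMSO in the 2 lines (difference 2.39 ± 0.13, adjusted p = 1.94e-15).

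TIFAB, an inhibitor of TRAF6 signalling in myeloid cells, averaged 34.3 CPM in OCI-AML3 at 2 h and 10.1 CPM in OCI-AML3 DMSO, and 17.5 CPM in Molm-14 at 2 h and 18.4 CPM in Molm-14 DMSO (difference 1.85 ± 0.12, adjusted p = 2.79e-13). SLC24A4, a potassium-dependent sodium/calcium exchanger, likewise rose in OCI-AML3 alone (2.03 ± 0.29, adjusted p = 1.36e-06).

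The potassium channel gene KCNK5, the antigen-presenting molecule gene CD1D, RGS18, ENC1 and the ligand gene BMP2 were called because they fell in Molm-14, with OCI-AML3 responses between -0.67 and 0.37 that were not called. BMP2 averaged 136 CPM in OCI-AML3 at 2 h and 168 CPM in OCI-AML3 DMSO, and 1.35 CPM in Molm-14 at 2 h and 6.06 CPM in Molm-14 DMSO (difference 1.85 ± 0.14, adjusted p = 1.03e-11). RGS18 was called at 2.06 ± 0.24 (adjusted p = 4.15e-07), or 1.34 with a pseudocount of 1 CPM. GOLGA8O (2.31 ± 0.38, adjusted p = 8.91e-05) stood at 1.46 with that pseudocount, belongs to a family of near-identical copies and is uncertain.

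**Figure D3:**
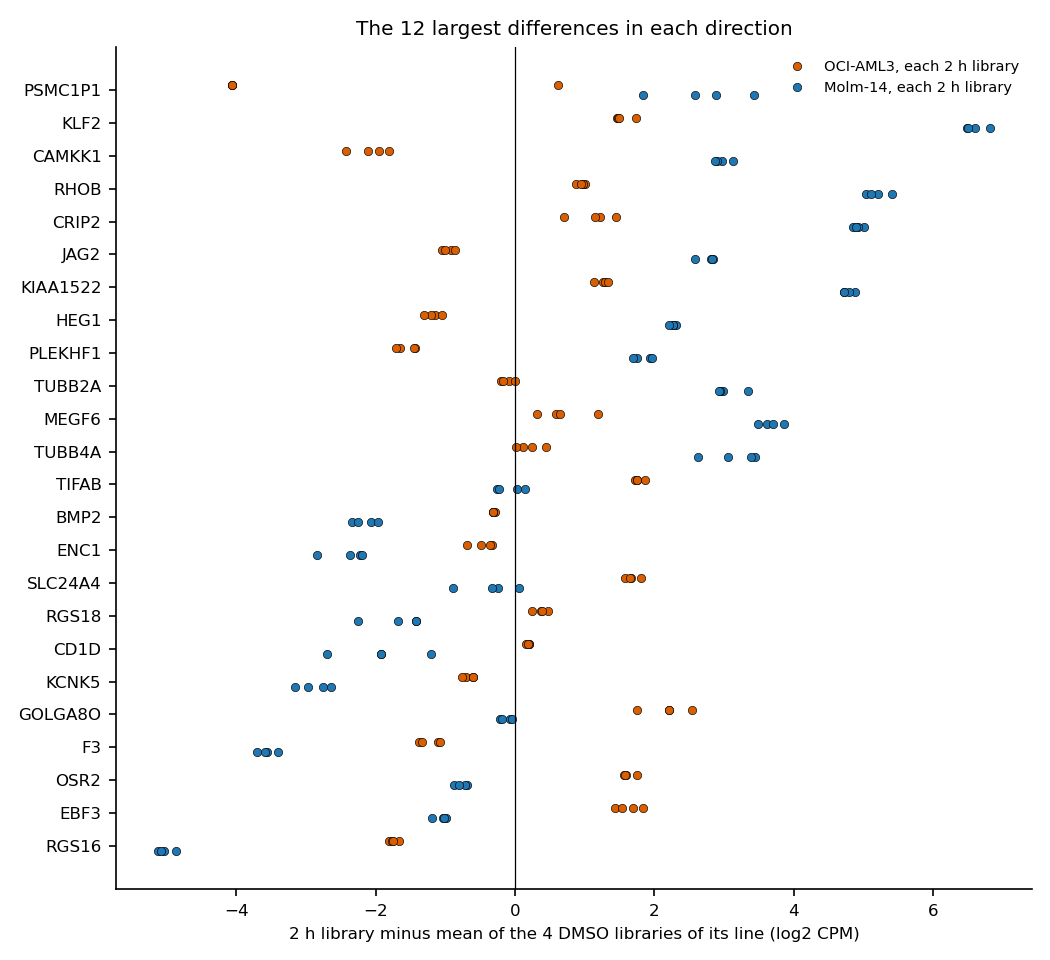
Responses of the 12 genes with the largest called difference in each direction. Each point is 1 library at 2 h minus the mean of the 4 DMSO libraries of its line, in log2 CPM, orange for OCI-AML3 and blue for Molm-14. In each gene all 4 points of one line lie on one side of all 4 of the other, which the choice of these genes required.

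Most classical ERK output and feedback genes fell in both lines. Of 16 measured, 12 fell in OCI-AML3 (against 3.35% of all genes) and 15 in Molm-14 (against 2.98%). For the difference 1 was called higher (6.2%, against 2.12% of all genes) and 2 lower (12.5%, against 3.52%), with values from -1.43 to 1.05 and a median of 0.07. The transcription factor genes ETV4 and ETV5 had differences of 0.21 ± 0.33 (adjusted p = 0.653) and 0.13 ± 0.21 (adjusted p = 0.662), and FOSL1, an AP-1 subunit, had 0.01 ± 0.22 (adjusted p = 0.984). SPRY2 (0.50 ± 0.10, adjusted p = 0.000237) and PHLDA1 (-0.88 ± 0.14, adjusted p = 8.27e-06) passed on p but not on size. The transcription factor gene ETV1 was called higher (1.05 ± 0.42, adjusted p = 0.0475), a call that ended in 16 of the 26 alternatives. It averaged 0.321 CPM in OCI-AML3 at 2 h and 0.713 CPM in OCI-AML3 DMSO. In Molm-14 it averaged 0.423 CPM at 2 h and 2.075 CPM in DMSO, and the library responses of the lines overlapped.

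CCND1 (chr11:69641087-69654474, plus strand), cyclin D1, had 1.95, 1.90, 2.72 and 2.49 CPM in OCI-AML3 at 2 h, against 64.3, 65.9, 64.0 and 64.1 CPM in OCI-AML3 DMSO. The Molm-14 libraries held 3.14, 3.12, 3.44 and 2.71 CPM at 2 h, against 31.9, 33.4, 32.5 and 35.1 CPM in DMSO. It fell in both lines, further in OCI-AML3, which started higher (difference -1.43 ± 0.19, adjusted p = 3.01e-07).

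DUSP6 (chr12:89347232-89353271, minus strand), the phosphatase that inactivates ERK, had 0.216, 0.323, 0.310 and 0.376 CPM in OCI-AML3 at 2 h, against 9.96, 12.1, 13.4 and 12.4 CPM in OCI-AML3 DMSO. Its Molm-14 levels were 3.32, 2.64, 3.15 and 2.31 CPM at 2 h, against 47.1, 43.7, 43.0 and 42.3 CPM in DMSO. The OCI-AML3 libraries at 2 h stood close to the value of 0 reads. The difference was -1.35 ± 0.28 (adjusted p = 0.000301) and turned to 0.25 with a pseudocount of 1 CPM, so the direction of the DUSP6 difference rests on the scale.

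SPRY4, an inhibitor of receptor signalling to RAS, was low at 2 h in both lines, at 0.718, 1.03, 0.720 and 0.592 CPM in OCI-AML3 and, closer to the value of 0 reads, 0.287, 0.214, 0.267 and 0.220 CPM in Molm-14. Its DMSO libraries held 38.4, 41.2, 39.1 and 37.0 CPM in OCI-AML3 and 10.8, 8.57, 9.72 and 10.8 CPM in Molm-14. The difference was -0.36 ± 0.27 (adjusted p = 0.307), reached a call at -1.37 with the pseudocount and was 0.03 with voom on read equivalents.

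Among regulators and members of the RAS family, RASGRP2, an exchange factor for RAP and RAS proteins, averaged 499 CPM in OCI-AML3 at 2 h and 494 CPM in OCI-AML3 DMSO, and 87.1 CPM in Molm-14 at 2 h and 33.6 CPM in Molm-14 DMSO (difference -1.35 ± 0.08, adjusted p = 6.02e-15). MRAS was called lower as well (-1.11 ± 0.07, adjusted p = 2.02e-14), with neither response called. NRAS, which is mutated in OCI-AML3, had a difference of -0.11 ± 0.07 (adjusted p = 0.23), and HRAS had -0.57 ± 0.10 (adjusted p = 2.93e-05, below the size limit). Of the 19 genes of the RAF to RSK cascade, 0 were called in either direction, against 2.12% of all genes higher and 3.52% lower. At those shares a list of this size would hold few called genes or none. The median difference of the cascade was 0.03.

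Of 18 growth factor and cytokine receptor genes, 1 was called, as lower (5.6%, against 3.52% of all genes). This was FGFR3 (chr4:1793293-1808872, plus strand), a receptor for fibroblast growth factors. It had 34.8, 37.6, 36.1 and 37.0 CPM in OCI-AML3 at 2 h, against 10.8, 9.86, 10.4 and 8.40 CPM in OCI-AML3 DMSO. Molm-14 libraries stood at 151, 139, 136 and 135 CPM at 2 h, against 5.90, 6.09, 6.58 and 5.14 CPM in DMSO. FGFR3 rose in both lines, and the order of the lines at 2 h was the reverse of that in DMSO, with no overlap (difference -2.68 ± 0.10, adjusted p = 6.63e-19). FLT3 averaged 132 CPM in OCI-AML3 at 2 h and 60.5 CPM in OCI-AML3 DMSO, and 387 CPM in Molm-14 at 2 h and 332 CPM in Molm-14 DMSO. It rose in OCI-AML3 alone, and the difference of 0.90 ± 0.06 (adjusted p = 3.85e-14) stayed under the size limit.

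FOXO targets had the highest median of the 25 lists, 0.47, a ranking among lists chosen with earlier results of these data known. A positive difference was seen in 19 of 23 members, against 6850 of all 13033 genes. Of the members, 5 were called higher (21.7%, against 2.12% of all genes) and 1 lower (4.3%, against 3.52%). FOXO factors are held out of the nucleus by AKT and switch on genes of growth arrest. In OCI-AML3, 10 members rose (against 3.23% of all genes) and 0 fell (against 3.35%). In Molm-14, 5 rose (against 4.3%) and 1 fell (against 2.98%). ARRDC3, an alpha-arrestin, had 22.9, 21.6, 21.8 and 18.6 CPM in OCI-AML3 at 2 h, against 3.68, 3.81, 3.45 and 3.48 CPM in OCI-AML3 DMSO. In Molm-14 it had 17.5, 20.02, 18.7 and 20.1 CPM at 2 h, against 9.25, 7.92, 8.71 and 7.85 CPM in DMSO. The groups overlapped between the lines at 2 h and not in DMSO, where OCI-AML3 was lower (difference 1.37 ± 0.12, adjusted p = 2.26e-10).

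KLHL24, an adaptor of a ubiquitin ligase, averaged 30.6 CPM in OCI-AML3 at 2 h and 5.16 CPM in OCI-AML3 DMSO, and 36.2 CPM in Molm-14 at 2 h and 13.1 CPM in Molm-14 DMSO (difference 1.10 ± 0.09, adjusted p = 9.06e-12, 0.96 and no longer called with a pseudocount of 1 CPM). CITED2, a transcriptional co-regulator, fell in Molm-14 alone and had a difference of 1.27 ± 0.06 (adjusted p = 5.34e-17). CREBRF (1.03) and FBXO32 (1.07) were the other members called higher, named after their values were seen. ULK1, the autophagy kinase, was the member called lower (-1.01 ± 0.10, adjusted p = 7.17e-09), a call that ended in 9 of the 26 alternatives.

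Of 34 interferon response genes, 23 had a positive difference, against 6850 of all 13033 genes. The median of the list was 0.26, and 2 were called higher (5.9%, against 2.12% of all genes) and 1 lower (2.9%, against 3.52%). IFIT2, an RNA-binding antiviral protein, had 1.22, 1.79, 1.64 and 0.863 CPM in OCI-AML3 at 2 h, against 0.156, 0.197, 0.821 and 0.105 CPM in OCI-AML3 DMSO. The Molm-14 libraries held 1.97, 1.32, 1.56 and 1.54 CPM at 2 h, against 1.16, 1.67, 1.17 and 1.53 CPM in DMSO. The OCI-AML3 groups came close, at 0.863 and 0.821 CPM, without overlap, and the Molm-14 groups overlapped. The difference was 2.34 ± 0.54 (adjusted p = 0.00128), and at these levels it fell to 0.74, no longer called, with a pseudocount of 1 CPM. IFIT5 was called at 1.12 ± 0.28 (adjusted p = 0.00191), a call that ended with the pseudocount (0.88) and without OCI-AML3 2 h replicate 2 (0.94). ISG20, an RNA exonuclease, was called lower (-1.502 ± 0.40, adjusted p = 0.00354). It averaged only 0.833 CPM in OCI-AML3 at 2 h and 0.810 CPM in OCI-AML3 DMSO. In Molm-14, where it rose, it averaged 5.37 CPM at 2 h and 2.07 CPM in DMSO. STAT2, a signal transducer of the interferon receptors, had a difference of 0.79, which was under the size limit. IRF9 leaned the other way, with library responses of 1.02 to 1.12 in OCI-AML3 and 1.78 to 1.93 in Molm-14. STAT2 and IRF9 are named after their values were seen.

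In the NF-kB and cytokine list 5 of 18 were called higher (27.8%, against 2.12% of all genes) and 2 lower (11.1%, against 3.52%), with a median of 0.24. NFKBIZ, an atypical inhibitor of NF-kB that co-activates a subset of its targets, had 104, 114, 106 and 101 CPM in OCI-AML3 at 2 h, against 47.5, 50.2, 48.1 and 55.1 CPM in OCI-AML3 DMSO. Its Molm-14 levels were 4.48, 3.34, 4.64 and 4.36 CPM at 2 h, against 5.62, 5.51, 5.08 and 5.50 CPM in DMSO. It rose in OCI-AML3 and lay below DMSO in every treated Molm-14 library (difference 1.46 ± 0.12, adjusted p = 1.79e-11).

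NFKBIE, another inhibitor of the family, was called higher (1.16 ± 0.11, adjusted p = 3.74e-10) with neither response called. TNFAIP3 (1.05), LTB (1.35) and CXCL10 (2.42) were called because they fell further or only in Molm-14, and are named after their values were seen. CXCL10 had 0 reads in OCI-AML3 at 2 h and 1 in OCI-AML3 DMSO, so its difference is a Molm-14 change. TNFAIP2, a TNF-inducible gene of myeloid cells, was called lower and averaged 75.03 CPM in OCI-AML3 at 2 h and 49.5 CPM in OCI-AML3 DMSO, and 316 CPM in Molm-14 at 2 h and 76.0 CPM in Molm-14 DMSO (difference -1.46 ± 0.08, adjusted p = 7.83e-16). TNF itself fell in both lines, with a difference of 0.39 ± 0.14 (adjusted p = 0.0225).

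Among 15 STAT5 targets, 1 was called higher (6.7%, against 2.12% of all genes) and 2 lower (13.3%, against 3.52%). CCND2, cyclin D2, was at 0.406 CPM in OCI-AML3 at 2 h and 0.303 CPM in OCI-AML3 DMSO, so its difference of 1.38 ± 0.32 (adjusted p = 0.00126) rests on Molm-14, with 63.3 CPM at 2 h and 134 CPM in DMSO. The kinase gene PIM1 was called lower (-1.05 ± 0.12, adjusted p = 6e-08, -0.95 and no longer called with a pseudocount of 1 CPM), as was the cytokine feedback inhibitor SOCS3 (-1.22 ± 0.29, adjusted p = 0.00122).

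**Figure D4:**
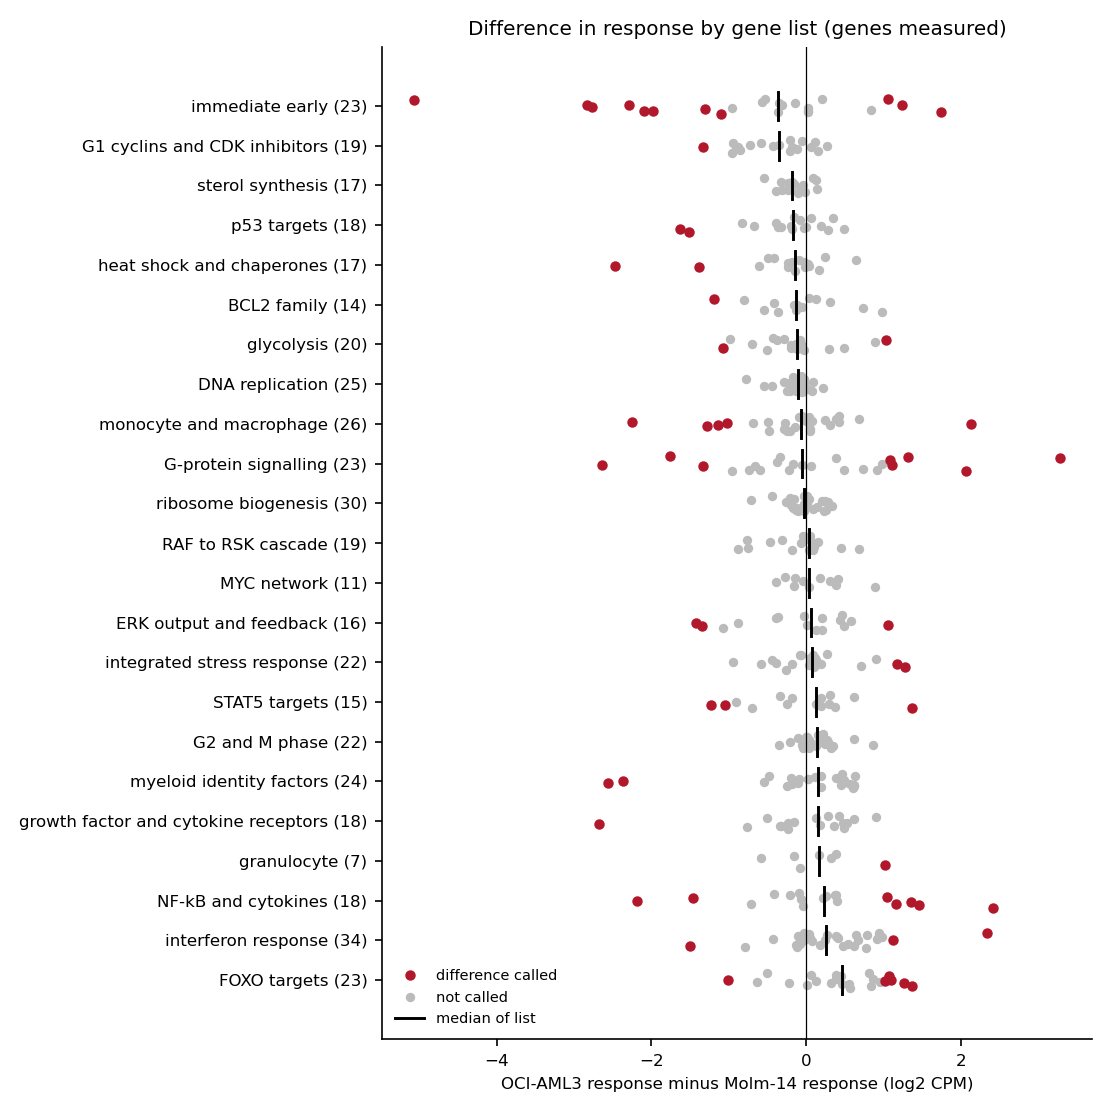
Difference in response (log2 CPM, OCI-AML3 minus Molm-14) for the members of 23 gene lists, with the number measured in parentheses. Red points are called, grey points are not, and the bar is the median of the list. Of the lists plotted the immediate early genes have the lowest median (-0.37) and the FOXO targets the highest (0.47). DNA replication, ribosome biogenesis and sterol synthesis have no called member, against 2.12% of all genes called higher and 3.52% lower.

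MYC, the growth factor-responsive transcription factor, fell in both lines. It had 69.4, 70.3, 70.1 and 79.8 CPM in OCI-AML3 at 2 h, against 382, 372, 381 and 362 CPM in OCI-AML3 DMSO. Levels in Molm-14 were 66.6, 59.4, 61.9 and 62.8 CPM at 2 h, against 601, 597, 601 and 605 CPM in DMSO. The treated groups did not overlap, and the difference of 0.89 ± 0.06 (adjusted p = 3.94e-13) was under the size limit. In the lists of the MYC network (11 genes), ribosome biogenesis (30), DNA replication (25), G2 and M phase (22) and sterol synthesis (17), 0 genes were called in either direction. Over all genes 2.12% were called higher and 3.52% lower. At those shares lists of these sizes would each hold few called genes or none. The median differences of these lists lay between -0.18 and 0.14.

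In the BCL2 family 0 of 14 genes were called higher and 1 lower (7.1%, against 3.52% of all genes). BBC3 (PUMA), a BH3-only activator of apoptosis, had 34.7, 40.3, 33.01 and 40.8 CPM in OCI-AML3 at 2 h, against 18.4, 15.6, 19.8 and 15.1 CPM in OCI-AML3 DMSO. Molm-14 libraries stood at 94.95, 80.5, 81.7 and 77.5 CPM at 2 h, against 17.7, 18.2, 15.3 and 16.3 CPM in DMSO. The DMSO groups overlapped between the lines, and at 2 h every Molm-14 library was higher (difference -1.20 ± 0.11, adjusted p = 9.12e-10).

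BMF, another BH3-only gene, leaned the other way, at 59.2 CPM in OCI-AML3 at 2 h and 5.41 CPM in OCI-AML3 DMSO, and 81.6 CPM in Molm-14 at 2 h and 14.7 CPM in Molm-14 DMSO. Its difference of 0.98 ± 0.09 (adjusted p = 3.66e-10) was just under the size limit and passed it with library totals (1.03), without Molm-14 DMSO replicate 1 (1.002) or 4 (1.04) and without OCI-AML3 DMSO replicate 1 (1.07). BCL2, the anti-apoptotic founder of the family, had a difference of 0.73 ± 0.07 (adjusted p = 2.08e-09). For MCL1 (-0.05 ± 0.05, adjusted p = 0.487) and BCL2L11 (0.13 ± 0.18, adjusted p = 0.616) the difference was within its error.

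Of 19 G1 genes 15 had a negative difference, against 6183 of all 13033 genes. The median of the list was -0.34, against 0.02 over all genes. Of the 19, 1 was called lower (5.3%, against 3.52% of all genes), CCNE2, cyclin E2 (-1.33 ± 0.16, adjusted p = 4.98e-08), having fallen in OCI-AML3 alone. CDKN1C, the CDK inhibitor p57, rose in both lines and had a difference of -0.85 ± 0.39 (adjusted p = 0.0847). In DMSO it stood near 0 reads, and it was called at -1.55 with voom on read equivalents and at -1.29 without Molm-14 DMSO replicate 2. CDKN1B had 0.28 ± 0.07 (adjusted p = 0.00134). Of 18 p53 targets, PHLDA3 (-1.51 ± 0.13, adjusted p = 3.22e-10) and the glycolysis regulator TIGAR (-1.63 ± 0.22, adjusted p = 6.17e-07) were called lower (11.1%, against 3.52% of all genes) and 0 higher. A negative difference was seen in 13 of the 18, against 6183 of all 13033 genes.

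Of 17 chaperone genes 2 were called lower (11.8%, against 3.52% of all genes) and 0 higher. HSPB1, a small heat shock protein, averaged 126 CPM in OCI-AML3 at 2 h and 130 CPM in OCI-AML3 DMSO, and 862 CPM in Molm-14 at 2 h and 342 CPM in Molm-14 DMSO (difference -1.38 ± 0.08, adjusted p = 1.57e-14). HSPA1A was also called lower (-2.47 ± 0.84, adjusted p = 0.0268), but its copy HSPA1B is near-identical, it stood under 1 CPM in Molm-14, and the call ended without Molm-14 DMSO replicate 2 or 3 (both -2.09), without Molm-14 2 h replicate 4 (-2.21) and without the 3 libraries farthest in GC balance, described later (-2.52). Its difference was -1.39 with a pseudocount of 1 CPM.

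In the integrated stress response list, SLC7A11, the cystine transporter (1.18 ± 0.12, adjusted p = 6.67e-09), and CTH, a cysteine synthesis enzyme (1.28 ± 0.22, adjusted p = 2.55e-05), were called higher (9.1% of 22 genes, against 2.12% of all genes) and 0 lower. Of 20 glycolysis genes 1 was called in each direction (5.0%, against 2.12% of all genes higher and 3.52% lower). The glucose transporter SLC2A1 was lower (-1.08 ± 0.09, adjusted p = 4.67e-11) and the hexokinase HK2 higher (1.04 ± 0.07, adjusted p = 2.38e-13). The HK2 call ended with a pseudocount of 1 CPM (0.99), without Molm-14 2 h replicate 3 (0.99) and without OCI-AML3 2 h replicate 3 (1.00).

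Of 23 G-protein signalling genes, 5 were called higher (21.7%, against 2.12% of all genes) and 3 lower (13.0%, against 3.52%). GPR84, a receptor for medium-chain fatty acids, had 1.28, 0.650, 0.874 and 0.809 CPM in OCI-AML3 at 2 h, against 17.2, 15.3, 16.7 and 16.4 CPM in OCI-AML3 DMSO. In Molm-14 it had 12.9, 13.0, 12.2 and 12.7 CPM at 2 h, against 40.2, 39.6, 35.6 and 37.5 CPM in DMSO. It fell in both lines, further in OCI-AML3 (difference -2.64 ± 0.20, adjusted p = 9.01e-12, or -1.69 with a pseudocount of 1 CPM). The chemokine receptor CCR2 (1.32 ± 0.09, adjusted p = 9.26e-13) was called higher because it fell in Molm-14 alone, and GPR35 (-1.34 ± 0.08, adjusted p = 2.72e-14) lower with neither response called.

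Of 24 myeloid identity factors, 2 were called lower (8.3%, against 3.52% of all genes) and 0 higher (against 2.12%). The median difference was 0.15, and 15 of the 24 had a positive difference, against 6850 of all 13033 genes. RUNX3, a RUNX family transcription factor, went against that lean. It had 36.8, 38.7, 40.01 and 42.1 CPM in OCI-AML3 at 2 h, against 50.2, 47.8, 45.1 and 49.4 CPM in OCI-AML3 DMSO. The Molm-14 libraries held 61.7, 49.1, 50.4 and 49.4 CPM at 2 h, against 11.1, 11.6, 13.8 and 13.7 CPM in DMSO. It rose in Molm-14 alone (difference -2.36 ± 0.10, adjusted p = 8.02e-18) and was called lower.

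Of 26 monocyte and macrophage genes, 1 was called higher (CD1D; 3.8%, against 2.12% of all genes) and 4 lower (15.4%, against 3.52%). CD14, a co-receptor for lipopolysaccharide, averaged 0.576 CPM in OCI-AML3 at 2 h and 3.398 CPM in OCI-AML3 DMSO, and at most 0.539 CPM in any Molm-14 library (difference -2.25 ± 0.49, adjusted p = 0.000487, or -1.40 with a pseudocount of 1 CPM). LGALS3 was called lower (-1.28 ± 0.22, adjusted p = 3.3e-05), and this call ended with the pseudocount (-0.56). NCF1, which has near-identical pseudogenes, was called at -1.02 ± 0.09 (adjusted p = 3.68e-10), and its call ended in 7 of the 26 alternatives. Among 7 granulocyte genes 1 was called higher (14.3%, against 2.12% of all genes). It was the chemokine receptor CXCR2 (1.03 ± 0.21, adjusted p = 0.000245), whose call ended in 9 alternatives.

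Some called genes stood under 1 CPM in both groups of 1 line. C3orf52, RAB3IL1 and CXCL1 had 0 reads in the 8 Molm-14 libraries. CXCL1, a neutrophil-attracting chemokine, averaged 6.97 ± 0.35 CPM in OCI-AML3 at 2 h and 31.6 ± 1.34 CPM in OCI-AML3 DMSO (SD, n = 4 each). C3orf52 averaged 0.228 CPM in OCI-AML3 at 2 h and 2.96 CPM in OCI-AML3 DMSO, and RAB3IL1 averaged 0.915 CPM in OCI-AML3 at 2 h and 5.82 CPM in OCI-AML3 DMSO. G0S2, an inhibitor of lipolysis, averaged 8.70 CPM in OCI-AML3 at 2 h and 37.5 CPM in OCI-AML3 DMSO, with 5 reads in Molm-14 at 2 h and 0 in Molm-14 DMSO. ANKRD22 averaged 0.804 CPM in OCI-AML3 at 2 h and 7.99 CPM in OCI-AML3 DMSO, and GUCY2D 1.34 CPM in OCI-AML3 at 2 h and 0.215 CPM in OCI-AML3 DMSO. In Molm-14 ANKRD22 averaged 0.156 CPM at 2 h and 0.232 CPM in DMSO, and GUCY2D had 1 read at 2 h and 0 in DMSO.

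In the reverse case, MAFA, a MAF family transcription factor, had 9.08, 6.90, 9.07 and 8.59 CPM in Molm-14 at 2 h, against 0.151, 0.365, 0.273 and 0.353 CPM in Molm-14 DMSO, and at most 0.475 CPM in any of the 8 OCI-AML3 libraries. CAPN12 averaged 23.9 CPM in Molm-14 at 2 h and 1.84 CPM in Molm-14 DMSO, and PTGDS averaged 9.54 CPM in Molm-14 at 2 h and 0.535 CPM in Molm-14 DMSO. FJX1 averaged 0.831 CPM in Molm-14 at 2 h and 7.81 CPM in Molm-14 DMSO, and FST, follistatin, averaged 0.917 CPM in Molm-14 at 2 h and 3.67 CPM in Molm-14 DMSO. CAPN12, PTGDS, FJX1 and FST averaged under 1 CPM in both OCI-AML3 groups. With a pseudocount of 1 CPM the difference was -2.80 for MAFA (-4.61 without), -2.74 for PTGDS (-4.27), 1.43 for FST (2.86), -1.69 for C3orf52 (-4.00) and 0.93, no longer called, for GUCY2D.

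Some genes expressed in both lines had a response called in OCI-AML3 alone. Of these, EHD1, which acts in endosome recycling, had 25.1, 23.7, 20.6 and 29.1 CPM in OCI-AML3 at 2 h, against 180, 173, 175 and 161 CPM in OCI-AML3 DMSO. Its Molm-14 levels were 25.3, 22.6, 23.8 and 24.8 CPM at 2 h, against 35.2, 36.2, 31.8 and 31.6 CPM in DMSO. All treated Molm-14 libraries thus lay below DMSO, with a response of -0.48 that was under the size limit. The lines overlapped at 2 h and stood apart in DMSO (difference -2.34 ± 0.10, adjusted p = 8.73e-18). CDC42EP2, an effector of CDC42, was called at -2.26 ± 0.25 (adjusted p = 1.11e-08).

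Of genes with neither response called, within the same level limits, SPNS2, CD55, FLRT1 and TMPRSS9 had the largest differences apart from PSMC1P1. CD55, an inhibitor of complement, had 19.6, 21.6, 20.5 and 19.4 CPM in OCI-AML3 at 2 h, against 37.2, 38.5, 33.2 and 32.7 CPM in OCI-AML3 DMSO. Levels in Molm-14 were 40.8, 43.3, 47.0 and 41.2 CPM at 2 h, against 22.0, 20.9, 23.2 and 23.7 CPM in DMSO. The groups did not overlap in either line, and both responses stayed under 1 (-0.80 in OCI-AML3 and 0.94 in Molm-14, difference -1.74 ± 0.09, adjusted p = 4.51e-16).

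The genes called lower had GC-rich transcripts. Their median transcript GC content was 58.6% (442 of 459 annotated), that of the 230 that rose in Molm-14 alone was 59.9%, that of genes called higher 49.5% and that of all genes tested 48.5%. The share called lower ran from 0.63% in the decile of genes with the lowest GC content to 10.75% in the highest, and the share called higher lay between 0.72% and 1.97% in every decile. Across 11160 genes the Spearman rho between GC content and the difference was -0.20, a description across genes. Promoters of genes called lower were also GC-rich, with a median of 71.8%, against 61.0% for genes called higher and 65.3% for all. Median transcript length was 3642 bases for genes called lower and 3626 bases for all.

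**Figure D5:**
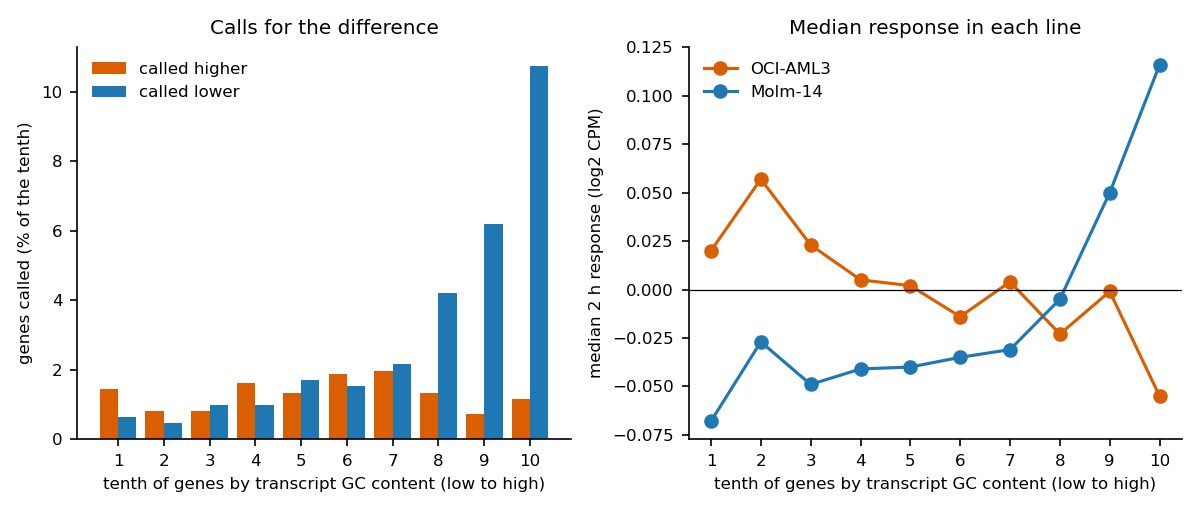
Left, share of genes called higher (orange) and lower (blue) in each decile of 11160 genes by transcript GC content. Right, median 2 h response (log2 CPM) of each decile in OCI-AML3 (orange) and Molm-14 (blue). The share called lower climbs to 10.75% in the top decile, where the median response was -0.06 in OCI-AML3 and 0.12 in Molm-14.

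Libraries within a group differed in GC balance, taken as the median deviation from the line's DMSO mean in the top decile minus that in the bottom decile. In 2 h libraries the GC balance therefore includes the response to treatment. It was 0.40 in Molm-14 2 h replicate 1, against 0.11 in the other 3 of that group, and it ran from -0.16 to 0.16 in OCI-AML3 at 2 h, from -0.22 to 0.18 in OCI-AML3 DMSO and from -0.07 to 0.15 in Molm-14 DMSO. The part of GC balance in the calls was tested by centring each decile within each library, which left 267 genes called higher and 423 lower, 657 of them among the 735. Without the 3 libraries farthest from their group's median (Molm-14 2 h replicate 1, OCI-AML3 2 h replicate 4 and OCI-AML3 DMSO replicate 4), 278 were called higher and 469 lower. KLF2, RHOB, JUN, NR4A1, CAMKK1, FGFR3, RGS16 and EGR1 kept their calls in both.

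The depth of the 16 libraries, recovered from the spacing of low values, lay between 15.4 M and 22.4 M reads (M, 1e6), so differences near 1 CPM rest on about 20 reads a library. All 8 myeloid markers were above 1 CPM in all groups, with summed levels of 3085 to 3394 CPM in OCI-AML3 at 2 h, 2903 to 3277 CPM in OCI-AML3 DMSO, 1774 to 2030 CPM in Molm-14 at 2 h and 1519 to 1605 CPM in Molm-14 DMSO. Of markers of other cell types, 3 of 10 lymphoid, 1 of 8 erythroid or platelet and 3 of 8 epithelial or stromal genes were measured. The lymphoid sum was 2.22 to 3.29 CPM in OCI-AML3 at 2 h, 1.97 to 3.13 CPM in OCI-AML3 DMSO, 30.1 to 33.1 CPM in Molm-14 at 2 h and 44.9 to 50.2 CPM in Molm-14 DMSO. The epithelial and stromal sum was 172 to 174 CPM in Molm-14 at 2 h, against 87.6 to 89.9 CPM in Molm-14 DMSO, nearly all of it PECAM1, which leukaemic myeloid cells also express.

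The later levels of the leading genes, given side by side with no test, show how far the 2 h contrast lasted. At 24 h KLF2 averaged 145 CPM in OCI-AML3 and 108 CPM in Molm-14, RHOB 22.8 and 0.244 CPM, JUN 20.7 and 3.48 CPM, and CAMKK1 11.5 and 31.6 CPM in the same order of lines. RGS16 averaged 4.13 CPM in OCI-AML3 and 32.6 CPM in Molm-14, EGR1 1.87 CPM in OCI-AML3 and 1.07 CPM in Molm-14, and RUNX3 27.9 CPM in OCI-AML3 and 62.6 CPM in Molm-14. In Molm-14 RHOB and JUN were thus far below their 2 h levels at 24 h, while KLF2, CAMKK1 and RUNX3 stood above every Molm-14 DMSO library.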

How the data were processed

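Poly(A) RNA was sequenced from 24 samples, and 23 columns could be matched to them through the labels' descriptions. The authors deposited log2 CPM values, here of 13033 genes named by symbol. The submitters' processing notes list limma 3.38.3, edgeR 3.24.3, RSEM 1.3.3, STAR 2.7.8a and Trimmomatic 0.36, without role or order, and build hg38. The lowest deposited log2 value, -3.26, stands for 0 reads and equals a prior count of 1.96, so changes of low genes are understated. Whether counting used strand is not stated, so overlapping genes are uncertain.

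Limma 3.58.1 in R 4.3.3 was fitted once to 6 group means over the 23 libraries (trend and robust options), and the difference was a contrast of 4 of them. The design had foreseen either counts or log values, and limma was used because the unit is log2. The call rule and the order of the difference are given with the results. The fit was tested on simulated data with known changes. Depth was recovered from the spacing of values of up to 20 reads, of which 74.9% to 80.6% per library lay within 0.05 of a whole read; intervals and floors cover counting error only. Gene positions, exons and GC content came from GENCODE 29, and promoters from RefSeq.

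Named genes were, among called genes at 1 CPM or more in both lines and 5 CPM or more in some group, the 12 largest differences in each direction (with single-library responses that did not overlap) and the 5 largest of each pattern of responses. To these came the 5 largest restricted to each line, up to 4 called members of each of 25 lists and of the marker lists by smallest adjusted p, and 27 genes in every case. These members and lists were chosen with earlier results of these data known. The alternatives were library totals, median-of-ratios scaling, a pseudocount of 1 CPM, a filter on low values, the 16 libraries alone, a replicate block, no trend or robust option, voom, leaving out each library, and, added after the data were seen, the 2 on GC content. Some genes and 2 of the lists are not reported here.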

Additional observations from a re-analysis of the deposited data

Results flagged for a closer look

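In 21 of 421 groups of 4 libraries (5.0%) 1 library of a named or listed gene lay farther from the others than the 95% limit of Dixon's ratio, which is about the 1 in 20 that chance gives. In OCI-AML3 at 2 h, replicate 4 stood apart for OSR2 (64.2 CPM), KLF2 (194 CPM), NCF1 (134 CPM), ETV4 (12.5 CPM) and MYC (79.8 CPM), each time as the highest, and this library also had the highest GC balance of its group, whose part in these values was not tested. Replicate 2 of that group stood apart for PSMC1P1 (2.66 CPM) and CCNE2 (7.79 CPM). In OCI-AML3 DMSO the libraries were replicate 1 for PSMC1P1 (0.105 CPM) and EGR1 (42.2 CPM) and replicate 2 for CCND1 (65.9 CPM) and ETV5 (12.4 CPM). In Molm-14 at 2 h they were replicate 1 for RUNX3 (61.7 CPM), replicate 2 for GUCY2D (0.159 CPM), FJX1 (1.20 CPM), KLHL24 (39.1 CPM) and LGALS3 (1.69 CPM), replicate 3 for JAG2 (20.6 CPM) and replicate 4 for TUBB2A (1.89 CPM) and ISG20 (4.59 CPM). In Molm-14 DMSO they were replicate 1 for OSR2 (8.10 CPM) and replicate 2 for TIGAR (10.3 CPM).

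The lines differed in response, by the test of the difference itself, in 276 genes called higher and 459 called lower. Opposite called responses were seen among named genes in EBF3 (2.69), CAMKK1 (-5.04), HEG1 (-3.44), PLEKHF1 (-3.40), ARHGEF16 (-2.81) and FGFRL1 (-2.69), in log2 units.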

How the results depend on the processing

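The counts of called differences, 276 higher and 459 lower, stayed within 1.5 times under library totals (313 and 411), median-of-ratios scaling, the 16 libraries alone, voom, GC centring and without any 1 library (265 to 287 higher, 436 to 478 lower). With a pseudocount of 1 CPM 128 were called higher, and 538 genes (858 without it) were called in OCI-AML3 at 2 h; with a filter on low values 156 were called higher, from fewer genes tested. With no minimum size 2499 were higher and 2540 lower. The replicate block gave 276 and 458; same-numbered libraries did not pair, with 7 of 24 pairs at a correlation over 0.1 and 1 of 16 libraries closest to its own number, and the block ended the calls of PSMC1P1 and ETV1. Of 108 named genes, 88 kept direction and call in all alternatives. Direction turned for DUSP6 with the pseudocount (0.249) and for SPRY4 with voom (0.026). For FOSL1, near 0 in the main fit, it turned with voom (-0.022) and without the 3 libraries farthest in GC balance (-0.001). It also turned without some single libraries (-0.119 to -0.001), while without others FOSL1 stayed positive (up to 0.216). Beyond what stands beside each gene, calls ended for GUCY2D with the pseudocount (0.93) and TRAC with voom (0.45) and without the 3 libraries (0.98). No scaling moved the median difference of all genes beyond 0.07. Depth limits genes under about 1 CPM; the causes of these changes were not tested.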
